A study of Mus musculus with 28 samples.

Results

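The regulators of mitochondrial biogenesis examined here are 10 genes. Among them are the coactivator genes Ppargc1a and Ppargc1b and the genes of the nuclear transcription factors Nrf1, Gabpa and Esrra. Tfam, Tfb2m and Polrmt encode proteins of mitochondrial transcription, and Tfb1m encodes a methyltransferase of mitochondrial ribosomal RNA. Polg encodes the catalytic subunit of the mitochondrial DNA polymerase. Each gene was found by its symbol in the annotation of the arrays, and where it had several probe sets the brightest one stands for it. All 10 were measured on the liver and quadriceps arrays, among 19928 genes. On the heart and gastrocnemius arrays 9 were measured, among 30063 genes. The probe set of Esrra there carries 3 gene symbols and cannot be assigned to 1 gene, so Esrra is given for liver and quadriceps only.

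Samples were total RNA of female mice of the inbred strain C57BL/6J, which lived in groups on chow and were killed after a night's fast. The older mice were 24 months old (103 weeks) and the younger ones 6 months old (24 weeks), with no other treatment or genotype named in the labels. Each age had 3 arrays of liver and 3 of the quadriceps muscle of the thigh, on one array type, and 4 of heart and 4 of the gastrocnemius muscle of the calf, on another, which makes 28 arrays. Whether each array of a group stands for its own animal, or whether tissues share animals, is not in the labels. The p-values here cover the spread between samples, which may be technical. Values are log2 expression levels as deposited, and because each probe set responds in its own way, levels are set against each other only within 1 gene and 1 array type.

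In the cell, mitochondrial mass is built from proteins of both genomes. The coactivators PGC-1alpha (Ppargc1a) and PGC-1beta (Ppargc1b) do not bind DNA themselves. They join nuclear factors, among them nuclear respiratory factor 1 (Nrf1), GA-binding protein (Gabpa, its DNA-binding subunit, also called NRF-2) and the estrogen-related receptor alpha (Esrra), at promoters of genes for respiratory chain subunits and for the proteins that serve mitochondrial DNA. Those proteins include TFAM, which packages mitochondrial DNA and starts its transcription, TFB2M, which opens the promoter with TFAM, the RNA polymerase POLRMT, and TFB1M, which methylates the small ribosomal RNA of mitochondria. In muscle and heart this circuit is known for setting oxidative capacity with exercise and fasting, and in liver PGC-1alpha is also known as a coactivator of fasting genes.

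The promoters of 4 of the genes, Tfam, Tfb1m, Tfb2m and Polrmt, are shown as a description of their sequence. Sequences are from RefSeq (GRCm38.p6), 5′ to 3′ on the strand of the gene, and run from 250 bases before the transcription start to the first 30 transcribed bases. Capitals mark matches on either strand to the letters GCGCANGCG, bound by NRF1, or CCGGAAGT, an ETS site of the kind bound by GABP.
Tfam, chr10:71238015-71238294, minus strand: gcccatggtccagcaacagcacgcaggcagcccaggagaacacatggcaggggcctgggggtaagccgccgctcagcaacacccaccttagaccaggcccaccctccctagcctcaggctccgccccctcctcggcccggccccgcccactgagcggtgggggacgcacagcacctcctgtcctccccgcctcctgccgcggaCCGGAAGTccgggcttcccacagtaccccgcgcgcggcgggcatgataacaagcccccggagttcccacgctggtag
Tfb1m, chr17:3557726-3558005, minus strand: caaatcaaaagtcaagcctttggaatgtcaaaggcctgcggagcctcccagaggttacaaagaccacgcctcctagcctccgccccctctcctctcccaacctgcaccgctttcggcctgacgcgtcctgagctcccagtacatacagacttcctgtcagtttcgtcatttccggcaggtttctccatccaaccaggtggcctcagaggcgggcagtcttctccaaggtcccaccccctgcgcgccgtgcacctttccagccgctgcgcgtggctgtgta
Tfb2m, chr1:179546247-179546526, minus strand: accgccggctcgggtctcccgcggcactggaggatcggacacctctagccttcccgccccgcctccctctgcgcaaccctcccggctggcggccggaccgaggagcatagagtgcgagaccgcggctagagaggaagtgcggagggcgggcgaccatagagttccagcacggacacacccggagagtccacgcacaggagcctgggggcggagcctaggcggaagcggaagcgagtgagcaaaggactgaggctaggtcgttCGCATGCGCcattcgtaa
Polrmt, chr10:79746552-79746831, minus strand: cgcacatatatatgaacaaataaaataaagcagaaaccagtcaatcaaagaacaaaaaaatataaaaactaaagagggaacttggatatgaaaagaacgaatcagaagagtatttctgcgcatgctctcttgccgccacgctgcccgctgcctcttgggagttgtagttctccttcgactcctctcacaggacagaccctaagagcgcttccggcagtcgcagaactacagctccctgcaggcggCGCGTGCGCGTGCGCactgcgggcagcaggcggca

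The Tfam promoter held 1 match to CCGGAAGT, starting 47 bases before the transcription start. In Tfb2m a match to GCGCANGCG started 12 bases after the first transcribed base, and in Polrmt a pair of overlapping matches to it started 5 bases before and 1 base after that base. Neither motif was found in the Tfb1m window. Over the full window of 300 bases, 9 of the regulators had a promoter in the table, with 2 alternative starts for Nrf1, and Ppargc1b was not analysed here. GCGCANGCG was found in 3 of the 9 genes (Tfb2m, Polrmt and Esrra), in 1901 of all 27025 genes and in 6.25% of all 32851 promoters of the table. CCGGAAGT was found in 2 of the 9 (Tfam and Polg), in 1164 of all genes and in 3.89% of all promoters. TCAAGGTCA, the element bound by the estrogen-related receptors, was found in 0 of the 9, in 126 of all genes and in 0.423% of all promoters. A match describes letters only and shows no binding.

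Before the comparisons, the arrays were checked for tissue and for arrays that stand apart. The mean level of 4 hepatocyte markers was 13.93 to 14.00 in 24-month livers and 13.97 to 13.99 in 6-month livers. Fast fibre markers averaged at least 13.03 in every array of quadriceps and gastrocnemius, and cardiomyocyte markers at least 12.32 in every heart array, so each tissue carried its defining transcripts. Liver replicate 2 at 24 months held exocrine pancreas transcripts, with a mean level of 9.64 over 5 markers, while the other 24-month livers lay at 6.20 and 6.66 and the 6-month livers between 6.12 and 6.26. Quadriceps replicate 1 at 24 months was the highest in hepatocyte markers (9.92, with the other quadriceps arrays between 7.25 and 8.85), and quadriceps replicate 3 at 6 months was the highest in slow fibre markers (9.15, with the others between 6.18 and 7.77). In heart, atrial markers averaged 7.19 to 9.65 at 24 months and 8.59 to 10.01 at 6 months. The interquartile range of all genes also moved with age in liver: it was 2.27 to 2.54 in the 24-month arrays and 2.64 to 2.70 in the 6-month arrays. B and plasma cell markers averaged 6.36 to 6.87 in 24-month livers and 5.89 to 6.20 in 6-month livers. T cell markers averaged 6.22 to 6.62 and 6.06 to 6.17. Fast fibre markers, dim in liver, were also wholly higher at 24 months (5.70 to 5.97 against 5.53 to 5.62). Macrophage, endothelial and fibroblast markers overlapped between the ages there. The part of these markers in the liver values below was not tested. In bulk samples such as these, fewer cells of a type and less RNA per cell cannot be told apart.

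The first question was whether these regulators differ between 24 and 6 months in liver. None passed the test: 0 of 10 had an adjusted p under 0.05 in limma, where 0.326% of all genes did. The values nearest to the threshold belonged to 3 genes, Tfam, Tfb1m and Tfb2m, whose levels in 24-month livers lay wholly below those in 6-month livers. In the liver 36.1% of all genes had ages that did not overlap, so 3 of 10 is close to the background. An unadjusted p under 0.05 was likewise reached by these 3 of 10 regulators and by 32.8% of all genes. The median difference over the 10 regulators was -0.10, beside 0.03 over all genes, and 7 of 10 lay below 0, as did 45.6% of all genes. Under quantile and cyclic loess normalization 4 and 5 of the 10 lay below 0 and the median of the 10 was close to 0 (0.0058 and -0.0013). With arrays centred on their median 9 of 10 lay below 0, with a median of -0.19 beside -0.06 over all genes. Once dim genes were left out, the median of the 10 was -0.10 beside -0.09 over the genes kept, so the regulators were near that background.

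Tfam, the packaging and transcription factor of mitochondrial DNA, had levels of 7.07, 7.24 and 7.55 in 24-month livers, against 7.64, 7.69 and 7.84 in 6-month livers. The 24-month arrays were all lower, with the smallest gap between 24-month replicate 3 and 6-month replicate 1. The log2 difference was -0.44 (SE 0.12, 95% interval -0.72 to -0.16, adjusted p = 0.0688), or a level 1.35-fold higher in 6-month livers. Tfb1m, the ribosomal RNA methyltransferase, had levels of 7.82, 8.14 and 8.19 in 24-month livers, against 8.37, 8.53 and 8.82 in 6-month livers. Here too no 24-month array reached the lowest 6-month array. The difference was -0.52 (SE 0.14, 95% interval -0.83 to -0.21, adjusted p = 0.0622), the largest in size among the regulators in any tissue. Tfb2m, the promoter-opening partner of TFAM, had levels of 9.01, 9.09 and 9.43 in 24-month livers, against 9.56, 9.51 and 9.59 in 6-month livers. The 6-month arrays lay within 0.1 of each other, while 24-month replicate 3 stood close below them. The difference was -0.38 (SE 0.11, 95% interval -0.63 to -0.12, adjusted p = 0.0740), and a second probe set of Tfb2m gave -0.37.

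**Figure D1:**
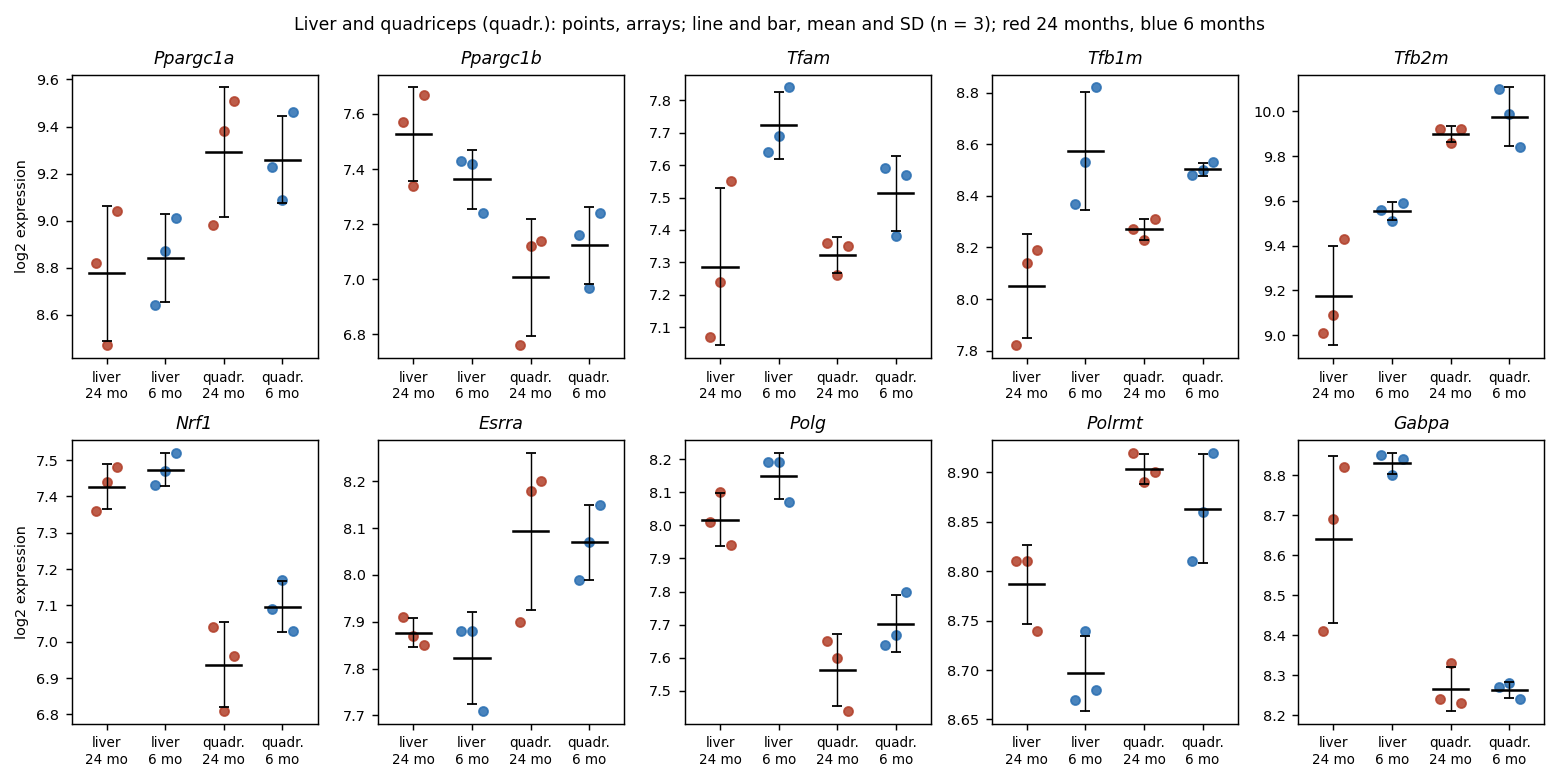
Log2 expression (vertical axes, 1 scale per gene) of the 10 regulators in liver and quadriceps arrays, 24 months in red and 6 months in blue, with the mean and SD of 3 arrays per group. In liver the 24-month arrays of Tfam, Tfb1m and Tfb2m sit below all 6-month arrays, while the other 7 genes overlap between the ages or meet at 1 value.

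These 3 differences crossed the threshold or missed it depending on the processing, without a change of direction. They passed with a model fitted over both tissues of the array type (adjusted p 0.0222, 0.0145 and 0.0274 for Tfam, Tfb1m and Tfb2m), with arrays centred on their median, with dim genes left out and with an intensity trend and robust prior. The same 4 settings called 18.2%, 9.84%, 17% and 11.3% of all genes tested, in that order, beside 0.326% as deposited, so the regulators' calls came with a larger share called over all genes. The 3 genes missed it by more under quantile normalization (adjusted p 0.140, 0.140 and 0.159) and under cyclic loess normalization (0.115, 0.124 and 0.164), both of which remove differences in spread between arrays. One array decided the call as well: without 24-month replicate 3 the differences were -0.57, -0.59 and -0.50 at adjusted p 0.0156, 0.0291 and 0.0156, and 25.5% of all genes passed. Without 24-month replicate 2, the array with pancreas transcripts, the differences were -0.41, -0.57 and -0.33, none of them past the threshold.

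**Figure D2:**
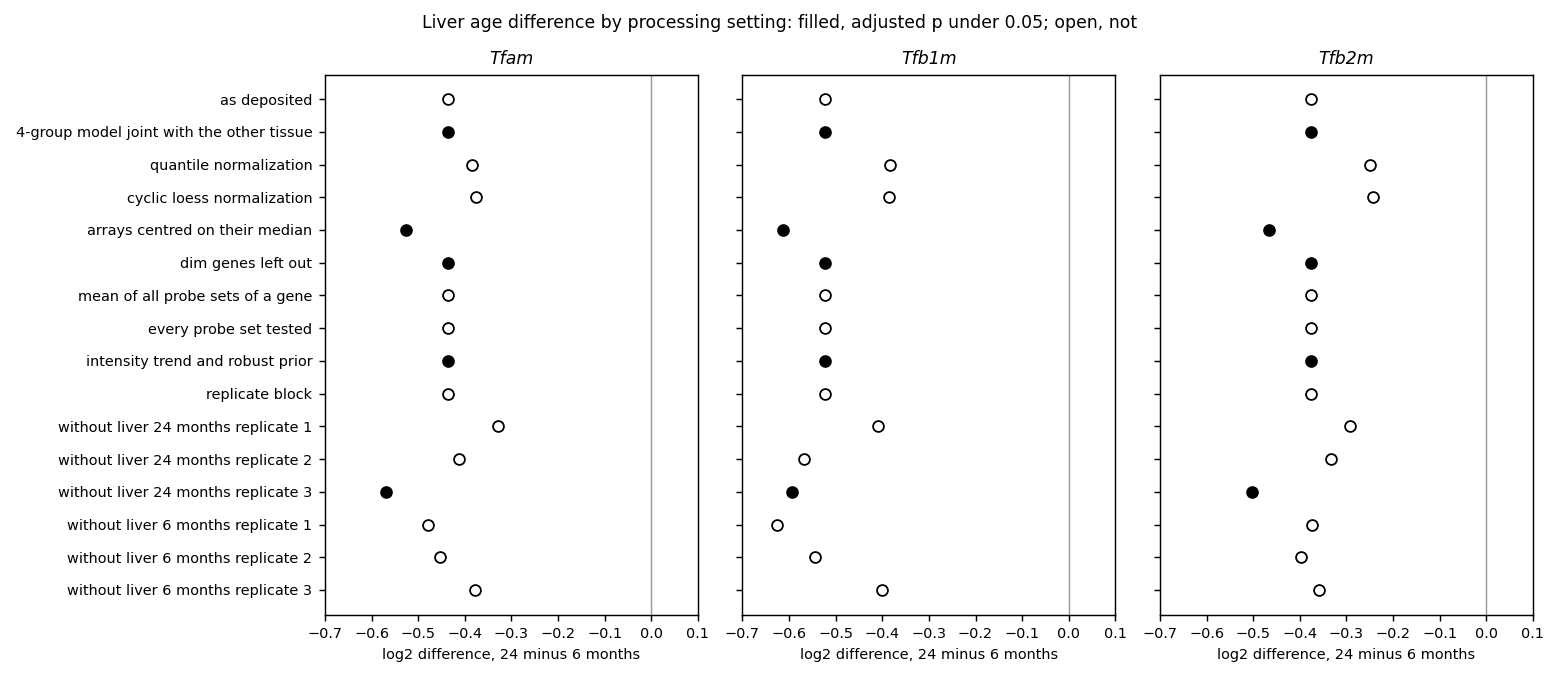
Log2 difference of 24-month minus 6-month livers (horizontal axis) for Tfam, Tfb1m and Tfb2m under each processing setting (rows), filled where the adjusted p was under 0.05 and open where it was not. All points lie below 0, between -0.63 and -0.24, and 5 of the 15 alternatives are filled for each gene.

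The other 7 regulators had smaller differences in liver. Ppargc1a had levels of 8.82, 8.47 and 9.04 in 24-month livers, against 8.64, 8.87 and 9.01 in 6-month livers, and the ages overlapped fully. Its difference was -0.06 (SE 0.15, 95% interval -0.40 to 0.28), and a second, dimmer probe set of Ppargc1a gave -0.36 (7.12 ± 0.50 at 24 months and 7.49 ± 0.11 at 6 months, SD, n = 3 each). The 2 probe sets of this gene disagreed in size, and the difference of the brighter one turned positive under quantile and cyclic loess normalization (0.066 and 0.080). Ppargc1b, its paralogue, averaged 7.53 ± 0.17 at 24 months and 7.36 ± 0.11 at 6 months, a difference of 0.16 (SE 0.10, adjusted p = 0.293). Among the nuclear factors, Nrf1 differed by -0.05, Gabpa by -0.19 and Esrra by 0.05, with adjusted p of 0.242 or more. The sign of Nrf1 turned under quantile and cyclic loess normalization (0.010 and 0.0059) and that of Esrra with arrays centred on their median (-0.037). Polrmt, the RNA polymerase that works with TFAM and TFB2M, averaged 8.79 ± 0.04 at 24 months and 8.70 ± 0.04 at 6 months (difference 0.09, adjusted p = 0.404). Polg averaged 8.02 ± 0.08 at 24 months and 8.15 ± 0.07 at 6 months (difference -0.13, adjusted p = 0.274, and 0.0017 under quantile normalization).

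In quadriceps 0 of 10 regulators passed the test for age, beside 0.00502% of all genes. The ages of 2 of 10 regulators did not overlap, beside 12% of all genes, and 2 of 10 had an unadjusted p under 0.05, beside 7.06% of all genes. They were Tfb1m and Tfam. Tfb1m had levels of 8.27, 8.23 and 8.31 in 24-month quadriceps, against 8.48, 8.50 and 8.53 in 6-month quadriceps. The spread within each age was small, and every 24-month array was lower. The difference was -0.23 (SE 0.06, 95% interval -0.38 to -0.09) with an adjusted p of 0.567 over all genes. Tfam had levels of 7.36, 7.26 and 7.35 in 24-month quadriceps, against 7.59, 7.38 and 7.57 in 6-month quadriceps, a difference of -0.19 (SE 0.08, adjusted p = 0.683). The lowest 6-month array of Tfam lay just above the highest 24-month array. Tfb2m differed by -0.08, Nrf1 by -0.16 and Polg by -0.14, all overlapping. The ages also overlapped for Ppargc1b (-0.12), Esrra (0.02), Polrmt (0.04) and Gabpa (0.0033), with adjusted p of 0.883 or more. Ppargc1a averaged 9.29 ± 0.28 at 24 months and 9.26 ± 0.19 at 6 months, and its lowest 24-month value, 8.98, was in replicate 1, the array with the highest hepatocyte markers. The part of those markers, and of the slow fibre markers in 6-month replicate 3, in these values was not tested. Fibroblast markers averaged 8.87 to 8.99 in 24-month quadriceps and 9.03 to 9.13 in 6-month quadriceps, and their part was not tested either.

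In heart 0 of 9 regulators passed the test, beside 0.00665% of all genes, and the ages of 0 of 9 were separated, beside 3.29% of all genes. Of the 9 differences 8 lay below 0, beside 43.4% of all genes, and 7 or 8 did when 1 array was left out. All 9 differences were small, between -0.16 and 0.03, with a median of -0.04 beside 0.01 over all genes. Tfb1m again had the largest in size. Its levels were 7.11, 7.02, 7.02 and 7.23 in 24-month hearts, against 7.33, 7.33, 7.15 and 7.20 in 6-month hearts. Only 24-month replicate 4 reached into the 6-month range. The difference was -0.16 (SE 0.06, 95% interval -0.30 to -0.01, adjusted p = 0.798), the only one of the 9 with an unadjusted p under 0.05, which 5.99% of all genes had. Tfam averaged 6.89 ± 0.05 at 24 months and 6.96 ± 0.04 at 6 months, and Ppargc1a 10.02 ± 0.16 at 24 months and 10.11 ± 0.10 at 6 months (SD, n = 4 each). For Ppargc1a the 95% interval of the difference was -0.27 to 0.10. Its paralogue Ppargc1b averaged 7.96 ± 0.11 at 24 months and 8.04 ± 0.07 at 6 months. The differences of Gabpa (-0.04), Nrf1 (-0.02), Tfb2m (-0.02), Polg (-0.0025) and Polrmt (0.03) were nearer to 0. The atrial markers given above also had lower levels in part of the 24-month hearts, and their part in these values was not tested. Endothelial markers averaged 9.368 to 9.45 in 24-month hearts and 9.452 to 9.558 in 6-month hearts, and their part was not tested either.

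In gastrocnemius 0 of 9 regulators passed the test, beside 0.00998% of all genes. The ages of 5 of 9 regulators did not overlap, beside 8.65% of all genes, and 3 of 9 had an unadjusted p under 0.05, beside 16.5% of all genes. Tfb2m had levels of 9.02, 9.16, 9.12 and 9.35 in 24-month gastrocnemius, against 8.98, 8.97, 8.80 and 9.00 in 6-month gastrocnemius. Every 24-month array was higher, here by as little as 0.02, and the difference was 0.23 (SE 0.08, 95% interval 0.05 to 0.40, adjusted p = 0.206). Polrmt had levels of 7.07, 7.02, 7.07 and 7.07 in 24-month gastrocnemius, against 7.17, 7.21, 7.27 and 7.21 in 6-month gastrocnemius. The arrays of each age clustered tightly and the older ones were lower. The difference was -0.16 (SE 0.04, 95% interval -0.26 to -0.06, adjusted p = 0.148), and it passed at 0.0484 in the model over both tissues of the array type, where 2.76% of all genes were called.

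Gabpa was the other regulator wholly higher in 24-month gastrocnemius, at 7.66 ± 0.03 beside 7.55 ± 0.06 in 6-month gastrocnemius (SD, n = 4 each, difference 0.11, adjusted p = 0.287). Nrf1 was wholly lower in 24-month gastrocnemius, at 6.07 ± 0.02 beside 6.16 ± 0.02 (difference -0.09, adjusted p = 0.308). Polg was also wholly lower, at 6.73 ± 0.06 beside 6.83 ± 0.02 (difference -0.10, adjusted p = 0.323). These differences were small in size, though larger than the SD within either age. The 6-month arrays of Gabpa (7.48 to 7.63) and the 24-month arrays of Polg (6.65 to 6.78) spanned more than the age difference. Ppargc1a had levels of 8.65, 8.59, 9.07 and 8.78 in 24-month gastrocnemius, against 8.47, 8.57, 9.07 and 8.45 in 6-month gastrocnemius. A single array of each age, replicate 3, held the highest level, 9.07 in both. The difference was 0.13 (SE 0.15, 95% interval -0.20 to 0.46). Tfam differed by 0.08, Tfb1m by 0.04 and Ppargc1b by 0.10, all overlapping. Endothelial markers averaged 7.46 to 7.99 in 24-month gastrocnemius and 7.77 to 8.14 in 6-month gastrocnemius. Macrophage markers averaged 5.97 to 6.21 at 24 months and 5.86 to 5.90 at 6 months there. B and plasma cell markers averaged 5.63 to 6.15 at 24 months and 5.30 to 5.53 at 6 months. The part of these markers in the gastrocnemius values was not tested.

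**Figure D3:**
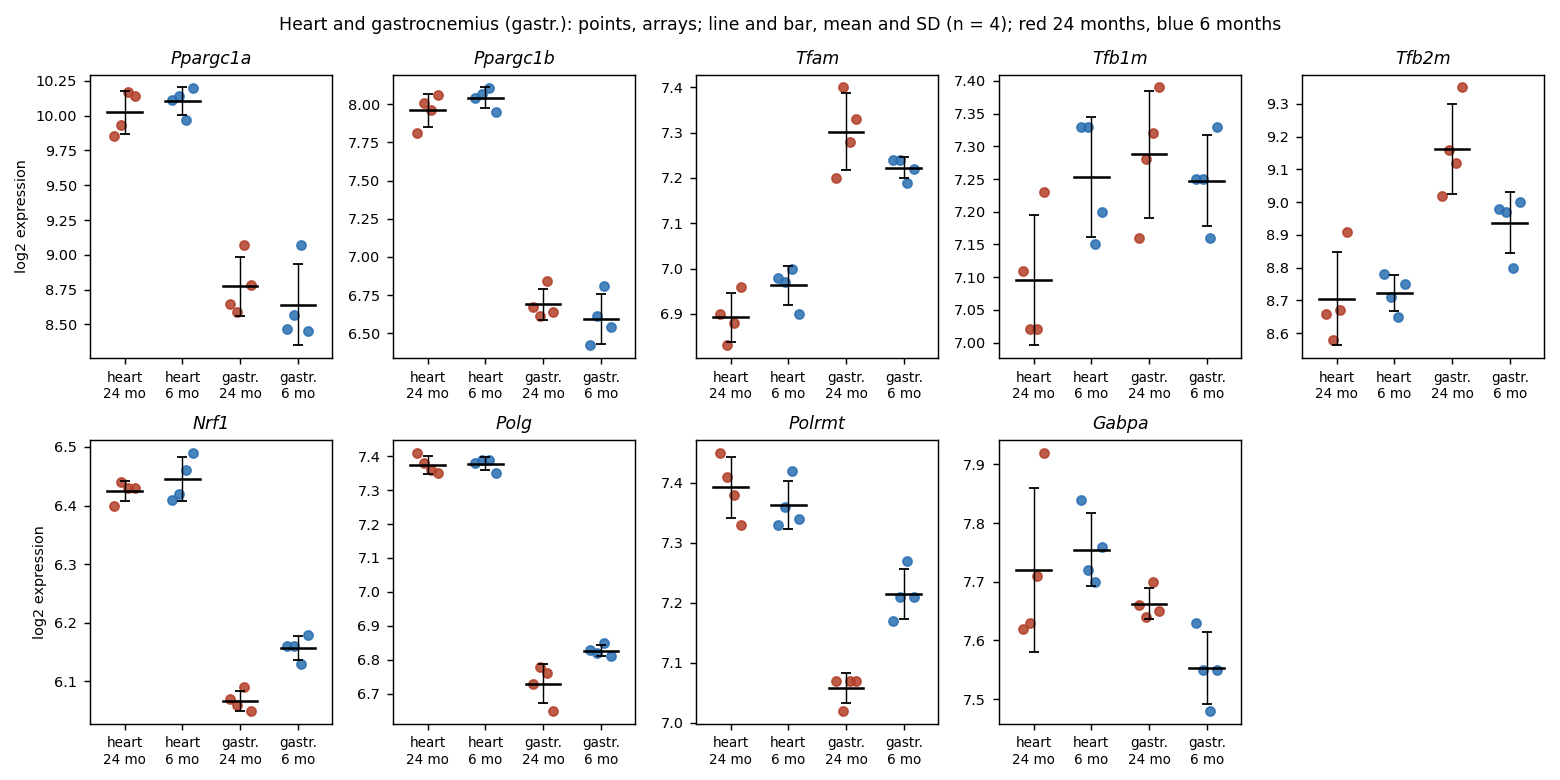
Log2 expression (vertical axes, 1 scale per gene) of 9 regulators in heart and gastrocnemius arrays, 24 months in red and 6 months in blue, with the mean and SD of 4 arrays per group. The ages overlap in heart for each gene, and in gastrocnemius they separate for Tfb2m, Gabpa, Nrf1, Polg and Polrmt, while Ppargc1a and Ppargc1b are higher in heart than in gastrocnemius.

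**Figure D4:**
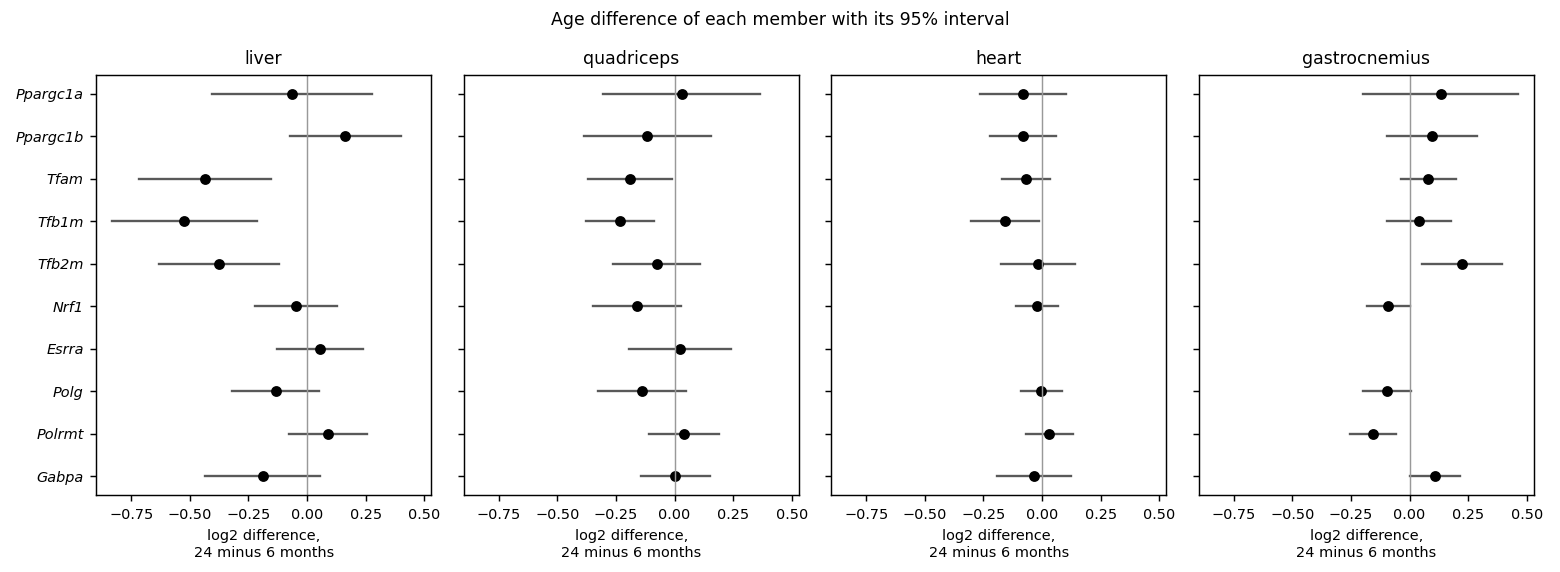
Log2 difference of 24 minus 6 months (horizontal axes, shared scale) of each regulator in the 4 tissues, as points with 95% intervals. Tfam, Tfb1m and Tfb2m lie farthest below 0 in liver, at -0.44, -0.52 and -0.38, and between 0.04 and 0.23 in gastrocnemius.

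Whether the age difference itself varied between tissues of 1 array type was tested as an interaction. It was not called for any regulator: 0 of 10 passed between liver and quadriceps, beside 0.0151% of all genes, and 0 of 9 between heart and gastrocnemius, beside 0.595%. The smallest adjusted p in the first comparison was that of Tfb2m, whose age difference was -0.38 in liver and -0.08 in quadriceps (interaction -0.30, SE 0.14, adjusted p = 0.267). Without liver 24-month replicate 3 that interaction was -0.43 and passed at 0.0429, where 7.34% of all genes passed. Between heart and gastrocnemius the smallest was that of Polrmt, at 0.03 in heart and -0.16 in gastrocnemius (interaction 0.19, SE 0.06, adjusted p = 0.155). Tfam, Tfb1m and Tfb2m each differed by -0.15 to -0.24 between heart and gastrocnemius, with unadjusted p under 0.05 and adjusted p of 0.332 to 0.348. With Polrmt 4 of 9 regulators had an unadjusted p under 0.05 there, beside 13.8% of all genes. That no interaction passed does not show that the tissues responded alike: for Tfb1m between liver and quadriceps the 95% interval of the interaction was -0.64 to 0.06.

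The regulators did differ between tissues at 6 months, in a model over the 4 groups of an array type. Between liver and quadriceps 7 of 10 passed, beside 68.2% of all genes, a share near the background. Gabpa was higher in liver than in quadriceps, at 8.83 ± 0.03 beside 8.26 ± 0.02 (SD, n = 3 each, difference 0.57, adjusted p = 7.65e-05). Polg was higher by 0.45 and Nrf1 by 0.38, although neither passed under quantile normalization (0.11 and 0.12). Lower in liver were Tfb2m, at 9.55 ± 0.04 beside 9.98 ± 0.13 in quadriceps (difference -0.42, adjusted p = 0.0022), and Ppargc1a, at 8.84 ± 0.19 beside 9.26 ± 0.19 (difference -0.42, adjusted p = 0.0345). Esrra (-0.25) and Polrmt (-0.17) were lower too. The calls of Ppargc1a, Esrra and Polrmt each ended without one or another single array: leaving out quadriceps 6-month replicate 3, the array high in slow fibre markers, ended all 3, with differences of -0.32, -0.21 and -0.14. Leaving out liver 6-month replicate 1 ended those of Ppargc1a (-0.32) and Polrmt (-0.15), replicate 2 that of Ppargc1a (-0.44, adjusted p = 0.0606), and replicate 3 those of Esrra (-0.19) and Polrmt (-0.16). Leaving out quadriceps 6-month replicate 1 ended that of Ppargc1a (-0.44, adjusted p = 0.0604), and replicate 2 those of Esrra (-0.25, adjusted p = 0.0556) and Polrmt (-0.17, adjusted p = 0.0681). That of Ppargc1a also ended with its probe sets averaged (-0.30, adjusted p = 0.143). Tfam, Tfb1m and Ppargc1b did not pass, with differences of 0.21, 0.07 and 0.24. Tfam passed without liver 24-month replicate 3 (adjusted p = 0.0400), Ppargc1b without quadriceps 24-month replicate 1 (0.0499), and Tfb1m under quantile normalization, there as lower in liver (-0.27, adjusted p = 0.0379, where 69.6% of all genes passed). Tfb1m was also negative, without a call, under cyclic loess normalization and median centring.

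Between heart and gastrocnemius the largest differences among the regulators were those of the coactivators. Ppargc1a had levels of 10.11, 10.14, 9.97 and 10.20 in 6-month hearts, against 8.47, 8.57, 9.07 and 8.45 in 6-month gastrocnemius. Every heart lay above every gastrocnemius. The difference was 1.47 (SE 0.13, 95% interval 1.19 to 1.74), or 2.76-fold. Ppargc1b had levels of 8.04, 8.07, 8.11 and 7.95 in 6-month hearts, against 6.42, 6.61, 6.81 and 6.54 in 6-month gastrocnemius, a difference of 1.45 (SE 0.08) or 2.73-fold. The median of all genes was itself 0.27 higher in heart, and relative to it Ppargc1a was higher by 1.20 and Ppargc1b by 1.18.

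In all 8 of 9 passed, beside 75.5% of all genes. Polg was higher in heart by 0.55, or by 0.29 relative to the median of all genes. Tfam was lower in heart, at 6.96 ± 0.04 beside 7.22 ± 0.02 in gastrocnemius (SD, n = 4 each, difference -0.26, SE 0.05), and so was Tfb2m, with a difference of -0.22 (adjusted p = 0.0179). That of Tfb2m was -0.16 at adjusted p = 0.0592 under quantile normalization and -0.19 at 0.0521 without heart 6-month replicate 3. Nrf1 (0.29), Gabpa (0.20) and Polrmt (0.15) passed as higher in heart by amounts near the shift of all genes. Their direction flipped with arrays centred on their median (-0.03, -0.12 and -0.17), where Polrmt passed as lower in heart (adjusted p = 0.0018). None of these 3 passed under quantile or cyclic loess normalization, with adjusted p of 0.223 to 0.979. Tfb1m, the regulator that did not pass, differed by 0.005 as deposited. Under quantile, cyclic loess and median scaling it passed as lower in heart, by -0.20, -0.18 and -0.31 (adjusted p 0.0133, 0.0208 and 0.0022), where 62%, 62.5% and 63.4% of all genes passed.

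Several regulators moved together from array to array. Over the arrays, each set relative to the mean of its tissue, Ppargc1b followed Ppargc1a with Pearson r of 0.59 in the 12 liver and quadriceps arrays and 0.77 in the 16 heart and gastrocnemius arrays. Ranked by the mean of both r, Ppargc1b was number 15 of 18973 genes most like Ppargc1a. The 3 genes most like Ppargc1a were Pptc7, which encodes a mitochondrial phosphatase, with mean r of 0.75, Mtx2, a subunit of the outer membrane metaxin complex, with 0.74, and P2ry2, a nucleotide receptor, with 0.73. With age taken out as well, the mean r of Ppargc1a and Ppargc1b was 0.74. The arrays share processing and tissue, so these are descriptions without a test.

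Tfam, Tfb1m and Tfb2m formed another such group. Tfb1m followed Tfam with a mean r of 0.78 (0.92 in liver and quadriceps, 0.65 in heart and gastrocnemius), rank 44 of 18973, and Tfb2m with 0.78 (0.89 and 0.67), rank 51. Gabpa had a mean r of 0.63 with Tfam, and Polrmt -0.67, rank 18768 of 18973. In both array types these r include the age differences described above. Centred on tissue and age, they were 0.65 for Tfb1m, 0.67 for Tfb2m, 0.50 for Gabpa and -0.37 for Polrmt. The genes most like Tfam were Cr1l, a complement regulator of rodents (0.88), C330007P06Rik (0.86) and Nae1, a subunit of the enzyme that activates NEDD8 (0.86). Ppargc1a itself was not among the genes like Tfam, with r of 0.33 and 0.02.

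**Figure D5:**
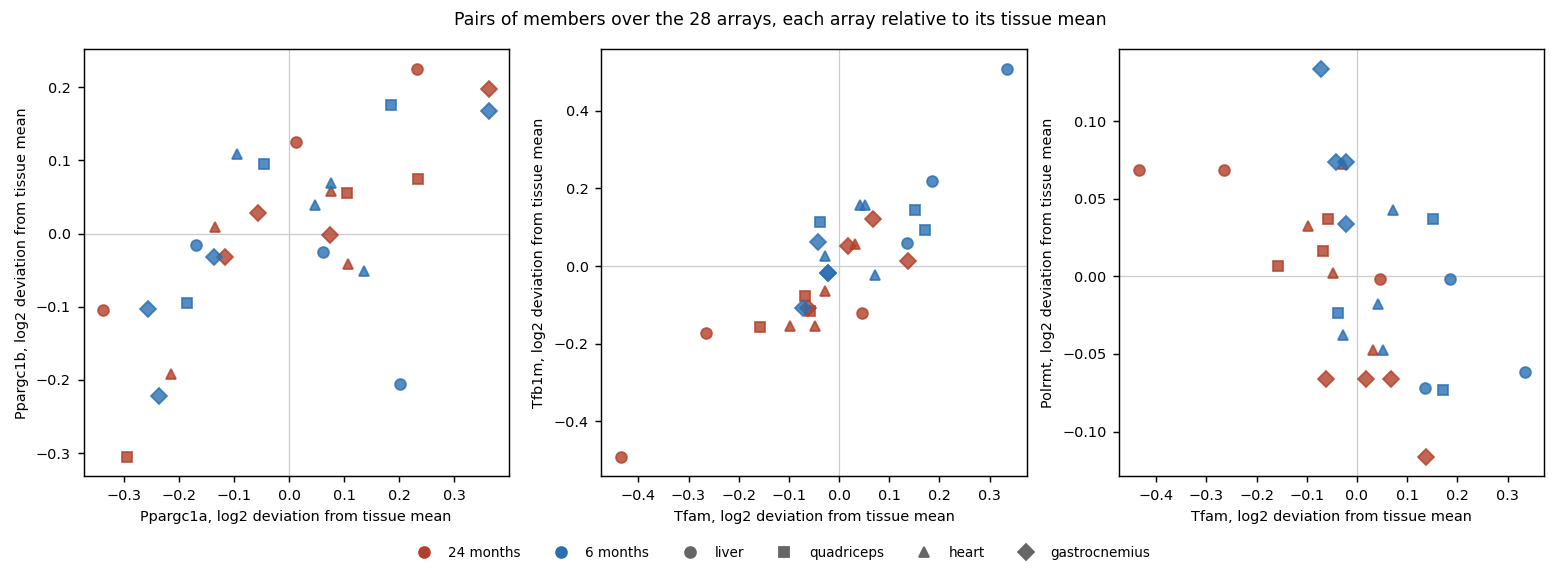
Log2 deviation of each of the 28 arrays from the mean of its tissue for 3 pairs of regulators, 24 months in red and 6 months in blue, with 1 symbol per tissue. Arrays high in Ppargc1a tend to be high in Ppargc1b, and arrays high in Tfam to be high in Tfb1m and low in Polrmt (mean r 0.68, 0.78 and -0.67), and the liver arrays span the widest range of Tfam.

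The wider pathway was read from 7 lists of genes around these regulators. In none of them did a gene pass the test for age as deposited, in any of the 4 tissues. In liver, with arrays centred on their median, 1 to 5 genes passed in each of 6 lists, and 0 in the list of transcripts of mitochondrial DNA, beside 9.84% of all genes. Once dim genes were left out, the liver median over all genes kept was -0.09. Those of the lists of mitochondrial DNA maintenance, RNA processing, PGC-1 partners and PGC-1 signals were then -0.18, -0.26, -0.19 and -0.17. The 2 genes of smallest p of each list and tissue are the ones named. Of the other proteins of mitochondrial DNA maintenance and transcription, 17 were measured in liver and 13 lay below 0, beside 45.6% of all genes. Their median difference was -0.18 beside 0.03 over all genes (-0.07 under quantile and cyclic loess normalization). Primpol, a primase-polymerase, averaged 6.50 ± 0.11 in 24-month livers and 6.93 ± 0.02 in 6-month livers (SD, n = 3 each, difference -0.43, adjusted p = 0.0543). Twnk, the mitochondrial DNA helicase Twinkle, averaged 7.26 ± 0.05 in 24-month livers and 7.60 ± 0.05 in 6-month livers (-0.34, adjusted p = 0.0543). In quadriceps the single-strand binding protein gene Ssbp1 (-0.25) and the elongation factor gene Tefm (-0.17) had the smallest p, with adjusted p of 0.567 and 0.678. In heart Slc25a33, a mitochondrial pyrimidine nucleotide carrier, differed by 0.26 (adjusted p = 0.683) and Top1mt, the mitochondrial topoisomerase, by 0.05. In gastrocnemius Rrm2b, a ribonucleotide reductase subunit, differed by 0.29 (adjusted p = 0.115) and Mgme1, a mitochondrial exonuclease, by -0.16 (adjusted p = 0.166). The medians of this list outside liver were -0.05, -0.01 and -0.02 in quadriceps, heart and gastrocnemius.

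The next list holds genes for proteins that process mitochondrial RNA after POLRMT has made it. In liver 12 of 12 measured lay below 0, beside 45.6% of all genes, without a call for any of them as deposited. Their differences lay between -0.42 and -0.15 with a median of -0.26, and 8 of 12 had an unadjusted p under 0.05, beside 32.8% of all genes. All 12 also lay below 0 under quantile, cyclic loess and median scaling, with medians of -0.14, -0.13 and -0.35. Without liver 24-month replicate 3, 8 of the 12 passed the test, beside 25.5% of all genes, and with median centring 5 did, beside 9.84%. Under quantile and cyclic loess normalization, and without any other single liver array, 0 passed. Pnpt1, the mitochondrial polynucleotide phosphorylase, averaged 7.58 ± 0.11 in 24-month livers and 7.99 ± 0.12 in 6-month livers (adjusted p = 0.0553). Slirp, which with LRPPRC stabilises mitochondrial messengers, averaged 8.36 ± 0.15 in 24-month livers and 8.78 ± 0.07 in 6-month livers (adjusted p = 0.0553). The list's medians were -0.08 in quadriceps, -0.03 in heart and 0.01 in gastrocnemius, and 0 of its 12, 11 and 11 genes there had an unadjusted p under 0.05. In those tissues the genes of smallest p were Prorp (-0.16) and Trmt10c (-0.19), subunits of mitochondrial RNase P, in quadriceps, Hsd17b10 (-0.05) and Elac2 (-0.03), which also take part in cutting transfer RNAs out of the transcript, in heart, and Pnpt1 (0.11) and the poly(A) polymerase gene Mtpap (0.08) in gastrocnemius.

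Among 21 measured partners and corepressors of the PGC-1 coactivators 16 lay below 0 in liver, beside 45.6% of all genes. Their median was -0.14 (-0.03 under quantile and cyclic loess normalization). Mef2d, a MADS-box factor that PGC-1alpha coactivates in muscle, averaged 9.63 ± 0.03 in 24-month livers and 10.03 ± 0.06 in 6-month livers (-0.39, adjusted p = 0.0543). Gabpb1, the partner subunit of GABPA, averaged 7.30 ± 0.18 in 24-month livers and 7.64 ± 0.11 in 6-month livers (-0.34, adjusted p = 0.0797). Mef2c had among the smallest p in the other 3 tissues, at 0.25 in quadriceps, -0.11 in heart and 0.19 in gastrocnemius, with adjusted p of 0.617, 0.837 and 0.172. Besides it stood the Mediator subunit gene Med1 in quadriceps (-0.14), the fat cell receptor gene Pparg in heart (0.29, adjusted p = 0.538) and the thyroid hormone receptor gene Thra in gastrocnemius (-0.20, adjusted p = 0.121).

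Of the signals that act on PGC-1alpha, 21 were measured in liver and 15 lay below 0, beside 45.6% of all genes. Their median in liver was -0.13 (-0.05 under quantile and cyclic loess normalization). Prkag2, a regulatory subunit of the energy sensor AMPK, differed by -0.32 there (adjusted p = 0.0616) and the calcineurin subunit gene Ppp3cb by -0.32 (adjusted p = 0.0843). Prkag3, the muscle form of that AMPK subunit, averaged 10.15 ± 0.05 in 24-month quadriceps and 9.62 ± 0.24 in 6-month quadriceps (0.53, adjusted p = 0.547). Nampt, an enzyme of NAD synthesis, differed by -0.22 in quadriceps (adjusted p = 0.572). Fnip1, a folliculin partner that holds AMPK and PGC-1alpha down in muscle, averaged 9.35 ± 0.06 in 24-month gastrocnemius and 8.96 ± 0.10 in 6-month gastrocnemius (0.39, adjusted p = 0.0792). Mapk14, the p38 kinase that phosphorylates PGC-1alpha, differed by -0.13 in gastrocnemius and -0.12 in heart, and the calcineurin gene Ppp3ca by -0.12 in heart, with adjusted p of 0.249 or more.

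Of the nuclear-encoded mitochondrial targets 19 of 21 lay below 0 in liver, where 45.6% of all genes did. Their median was -0.11 beside 0.03 over all genes (16 of 21 and -0.06 under quantile normalization). Once dim genes were left out, it was -0.12 beside -0.09 over all genes kept. Hspd1, the mitochondrial chaperonin, averaged 10.64 ± 0.11 in 24-month livers and 11.09 ± 0.14 in 6-month livers (-0.45, adjusted p = 0.0543). Idh3a, a subunit of the citrate cycle enzyme isocitrate dehydrogenase, differed by -0.35 (adjusted p = 0.0779). In the other tissues the medians were -0.02 in quadriceps, -0.01 in heart and -0.03 in gastrocnemius. The genes of smallest p there were Mfn2 (0.12) and Cycs (-0.14) in quadriceps, Cs (-0.06) and Vdac1 (-0.06) in heart, and Cox5b (-0.31) and Idh3a (0.13) in gastrocnemius, none with an adjusted p under 0.203. Transcripts of mitochondrial DNA itself were represented by 2 genes in liver and quadriceps and 6 in heart and gastrocnemius. COX2, a cytochrome oxidase subunit, differed by -0.11 in liver and -0.14 in quadriceps, and ND3, a complex I subunit, by -0.05 and -0.16. In heart ND6 (0.17) and COX1 (0.21) and in gastrocnemius ND3 (0.11) and ND6 (0.27) had the smallest p, with adjusted p of 0.270 or more.

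Fasting genes that PGC-1alpha coactivates in liver did not share a sign: 5 of 10 lay above 0 in 24-month livers and the median was -0.05. Lpin1, a phosphatidate phosphatase and coactivator, averaged 9.90 ± 0.23 in 24-month livers and 9.05 ± 0.39 in 6-month livers (0.85, SE 0.19, adjusted p = 0.0543). The same gene differed by -0.30 in quadriceps, -0.34 in gastrocnemius and -0.09 in heart, with adjusted p of 0.162 or more. Its age difference between liver and quadriceps was 1.15 apart (SE 0.25, adjusted p = 0.0886). Creb3l3, a liver transcription factor, differed by -0.14 in liver, the kinase gene Sik1 by -0.52 in quadriceps and -0.26 in gastrocnemius, and Pdk4, which spares glucose, by -0.16 in heart (adjusted p = 0.532).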

How the data were processed

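Total RNA was amplified and hybridised to 2 types of Affymetrix array, per the labels' protocols. The values the authors deposited are log2 expression levels rounded to 2 decimals. RMA is named in the submitters' processing notes, without a version. RMA normalizes arrays to each other, which can remove a shift common to most genes. Which arrays were normalized together is not known, and the deposited arrays still differed in interquartile range, as given above for liver. All columns matched a sample, with 0 left unmapped, and no array was a duplicate of another.

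Probe sets with 1 gene symbol were kept (21797 of 28944 and 30604 of 65956), with symbols updated through a RefSeq table, and each gene took its probe set with the highest mean. The ages were compared within each tissue by limma 3.58.1 under R 4.3.3 (moderated test of lmFit and eBayes, two-sided), with Benjamini-Hochberg adjustment over all genes and a threshold of 0.05. Interactions and tissue contrasts came from a model of the 4 groups of an array type. The fits were tested on simulated data. Arrays have no count depth, and their number limits the precision.

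The regulators and lists were chosen with earlier results of these data known. Named are the 10 regulators in every tissue where they were measured, the genes of each list past the threshold (at most 4, or else the 2 of smallest p), and the 3 genes most like Ppargc1a and Tfam by the mean of 2 Pearson r. The centring on tissue and age of those r was chosen after seeing the data. Alternatives were quantile normalization, cyclic loess with 3 iterations, median centring of the arrays, leaving out dim genes (means under the median of all values in every group), averaging a gene's probe sets, testing every probe set, an intensity trend and robust prior, the replicate number as a block, the model over both tissues, and leaving out each array in turn.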

Additional observations from a re-analysis of the deposited data

Results flagged for a closer look

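Among 36 groups of 4 arrays (9 regulators in heart and gastrocnemius at each age), 2 held an array far from the others by Dixon's criterion at 95%, which chance gives for about 1 in 20 groups. Tfb2m was 8.80 in gastrocnemius replicate 3 at 6 months, below the other 3 arrays at 8.97 to 9.00. The age difference of Tfb2m without that array was 0.18 in place of 0.23. Polrmt was 7.02 in gastrocnemius replicate 2 at 24 months, while the other 3 arrays all had 7.07. The age difference of Polrmt without that array was -0.15 in place of -0.16. Values carry 2 decimals, so the gap of the second is a few steps of the deposited scale. Groups of 3 arrays were not examined in this way.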

How the results depend on the processing

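Of the 38 age differences of single regulators by tissue, 0 passed the threshold as deposited. In liver 3 passed with the 4-group model, with median centring, with dim genes left out and with the intensity trend and robust prior (18.2%, 9.84%, 17% and 11.3% of all genes passed there), and 0 to 3 when 1 array was left out (3 without 24-month replicate 3, beside 25.5% of all genes). In gastrocnemius 1 passed with the 4-group model, beside 2.76% of all genes. In quadriceps and heart 0 passed under any alternative. Leaving out 1 array gave 0 to 1 called interactions between liver and quadriceps (1 without liver 24-month replicate 3, beside 7.34% of all genes). Between these tissues at 6 months it gave 4 to 8 called contrasts, while 12771 to 13906 of all 19928 genes passed. The 4 came without quadriceps 6-month replicate 3, where 12916 genes passed. Between heart and gastrocnemius at 6 months it gave 7 to 8, while 21695 to 22905 of all 30063 genes passed. Quantile normalization gave 5 there, beside 62% of all genes.

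Directions that turned were mostly those of differences near 0. Under quantile normalization the liver differences of Ppargc1a, Nrf1 and Polg were 0.066, 0.010 and 0.0017, and under cyclic loess those of Ppargc1a and Nrf1 were 0.080 and 0.0059. With arrays centred on their median Esrra in liver was -0.037 and Gabpa in quadriceps -0.01. The interaction of liver and quadriceps turned for Ppargc1a (0.020 with quantile and 0.054 with cyclic loess) and, with median centring, for Esrra (-0.047), Polg (-0.070) and Polrmt (-0.027). Between liver and quadriceps at 6 months Tfam turned to -0.090 with quantile normalization, and Tfb1m to -0.27, -0.13 and -0.047 with quantile, cyclic loess and median centring. Between heart and gastrocnemius the same settings in the same order gave Tfb1m -0.20, -0.18 and -0.31, Nrf1 -0.018, -0.0012 and -0.030, and Polrmt -0.049, -0.032 and -0.17, and Gabpa was -0.12 with median centring. As deposited, the median difference over all genes at 6 months was 0.27 between heart and gastrocnemius and 0.10 between liver and quadriceps. Under quantile, cyclic loess and median scaling the first was -0.010, -0.0013 and -0.0525. The second was -0.061, 0.0026 and -0.017 in the same order, so quantile normalization turned its sign. The cause of the turns of single regulators was not tested.

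Leaving out 1 array turned the sign of these differences, given as lowest and highest values. In liver they were Ppargc1a (-0.20 to 0.090) and Esrra (-0.0033 to 0.082). In quadriceps they were Ppargc1a (-0.080 to 0.19), Ppargc1b (-0.19 to 0.0067), Esrra (-0.030 to 0.12) and Gabpa (-0.028 to 0.022). In heart they were Tfb2m (-0.086 to 0.024) and Polg (-0.014 to 0.0058). For the interaction of liver and quadriceps they were Ppargc1a (-0.25 to 0.060), Esrra (-0.067 to 0.083) and Polg (-0.055 to 0.050). At 6 months Tfb1m ranged between -0.053 and 0.17 for liver and quadriceps and between -0.024 and 0.039 for heart and gastrocnemius.

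The replicate numbers did not meet the criterion for pairing, a correlation over 0.1 in every pair: over all genes, same-numbered arrays of the 2 ages had correlations of deviations of -0.02 to 0.05 in liver, -0.04 to 0.16 in quadriceps, -0.22 to -0.002 in heart and -0.04 to 0.30 in gastrocnemius, where 3 of 4 numbers correlated best with their own, as a hint from the data only. Same-numbered arrays of 2 tissues at 1 age did not meet it either. Liver with quadriceps gave -0.11 to 0.06 at 24 months and -0.02 to 0.01 at 6 months. Heart with gastrocnemius gave 0.008 to 0.19 at 24 months and -0.03 to 0.04 at 6 months. With the replicate block 0 regulators were called for age in each tissue, and 0 of all genes were. Between liver and quadriceps at 6 months it called 5 of 10 in place of 7, beside 13257 of all 19928 genes. Esrra and Polrmt were the ones lost (adjusted p 0.0523 and 0.0774). The count of all genes called moved with the setting: 0 to 5073 in liver (65 as deposited), 0 to 18 in quadriceps (1), 0 to 25 in heart (2), 0 to 829 in gastrocnemius (3), 0 to 1462 and 6 to 547 for the interactions (3 and 179). Between heart and gastrocnemius at 6 months 18264 genes were higher and 4427 lower as deposited, 9003 and 9629 with quantile normalization.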
